A study of Rattus norvegicus with 7 samples.

Results

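Arteridin peaks with a summit from position 6 Mb up to 12 Mb of rat chromosome 6 numbered 1610 of 3013 in the list made with Arteridin overexpression (ORF) and 1059 of 2079 in the list made without it (CTR). The members were chosen by the summit position that the same lists give, so their number and their place on the chromosome are descriptions and carry no test. The lists come from chromatin immunoprecipitation followed by sequencing (ChIP-seq) in A10 cells, a rat thoracic aorta smooth muscle line, at passages 10 to 15, with a custom rabbit antibody raised against full-length Arteridin and single-end reads of 50 nt. Cells were transfected by lipid reagent per the labels, and the labels do not say whether CTR cells received an empty plasmid. The sample titles name the libraries only ORF and CTR; from the design text, ORF was taken for the cells with overexpression and CTR for those without. Each condition had 1 library, so no difference between them has a replicate check. The series also holds 3 YBX1 ChIP libraries and 2 inputs.

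Smooth muscle cells of the artery wall can leave the contractile state and take up a migrating, dividing and matrix-making state, a change called phenotype switching. Arteridin is a protein product of the Phenotype Switching Regulator gene, and YBX1 is a cold-shock domain protein that binds DNA and RNA. ChIP-seq reads pile up where an immunoprecipitated protein was held on DNA, and a peak caller lists the places where the pile exceeds an expected level taken from an input library, which is chromatin sequenced without immunoprecipitation. The genes and the DNA sequence at the listed positions were not analysed here.

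Arteridin peaks were spread over most of the window in both libraries, and the highest densities and most empty bins fell at the same places. Elsewhere the counts did not always move together. From the bin of 100 kb starting at 8800001 to the one starting at 8900001, CTR fell from 23 to 7 peaks and ORF from 29 to 24. Linked over gaps of up to 100 kb, the 2 lists formed 2 dense stretches. The first ran from chr6:6462222-9981205, which is 3.52 Mb, with 1157 ORF and 777 CTR peaks, or 32.9 and 22.1 per 100 kb. The second ran from chr6:10144544-11720206, which is 1.58 Mb, with 451 ORF and 282 CTR peaks, or 28.6 and 17.9 per 100 kb. Only 2 ORF peaks and 0 CTR peaks of the window lay outside these stretches. Both of these ORF peaks, chr6:6171616-6171668 with 7 reads and chr6:6180348-6180435 with 9 reads at the summit, stood alone before the first stretch.

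The peaks crowded most strongly into 500 kb of the first stretch. Of the 60 bins of 100 kb, 5 held at least 50 ORF peaks, and these 5 lay side by side from 7100001 to 7600000. They held 479 ORF peaks (29.8% of the window's ORF peaks) and 364 CTR peaks (34.4%). The fullest bin, starting at 7300001, had 119 ORF and 93 CTR peaks. The bin before it, starting at 7200001, had 118 and 89, and the bin after it, starting at 7400001, had 87 and 68. Density fell away on both sides, to 35 ORF and 21 CTR peaks in the bin starting at 7000001 and to 13 and 13 in the bin starting at 7700001. The other filled bins held fewer, with medians of 23 ORF and 15 CTR peaks and at most 49 and 33. A lower second rise lay in the second stretch, where the bins starting at 10700001, 10800001 and 10900001 had 41, 40 and 49 ORF peaks and 32, 23 and 33 CTR peaks.

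**Figure D1:**
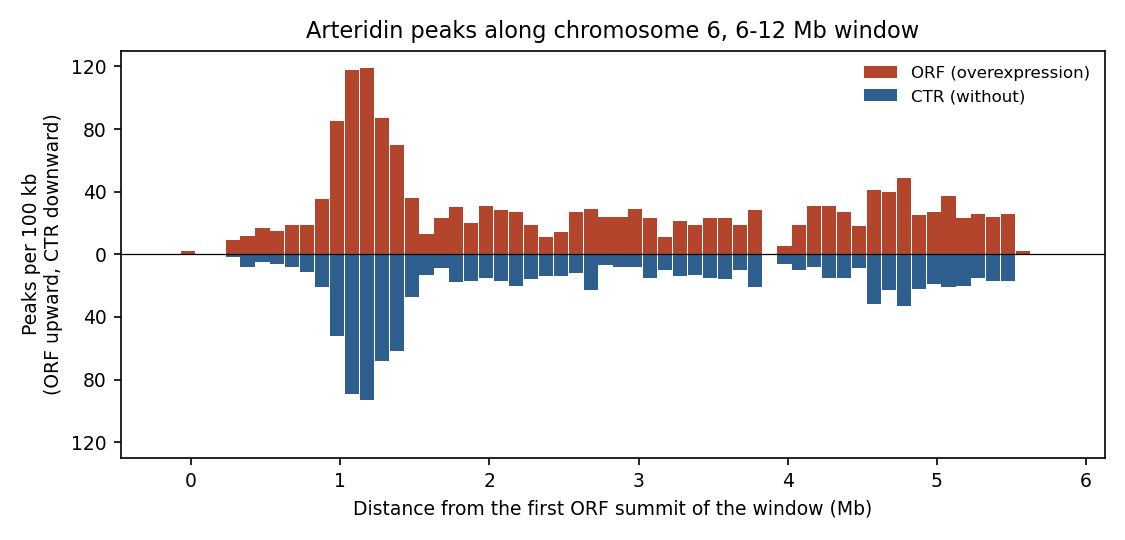
Number of Arteridin peaks in each 100 kb bin of the window (ORF upward, CTR downward) against the distance of the bin centre from the first ORF summit, in Mb. Both lists reach their highest counts, 119 and 93, in the same bin, and 6 bins are empty in both.

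Empty stretches were also common to both libraries. Of the 60 bins, 6 were empty in ORF and 8 in CTR, and all 6 that were empty in ORF were empty in CTR. The longest stretch without a peak of either list ran from 6180436 to 6462221, which is 281.8 kb. The window also ended empty for 279.8 kb after 11720206 and began empty for 171.6 kb before the first ORF peak. The 2 dense stretches were parted by an empty 163.3 kb, from 9981206 to 10144543. A short island followed at its far side, and then 89.5 kb without peaks from 10148089 to 10237551. The bin holding this island had 5 ORF and 6 CTR peaks, of which 4 and 4 overlapped the other list.

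Outside the window's edges the lists were empty for some distance. The last ORF summit before the window was at 5662047, with 6 reads and a fold of 4.83, and the last CTR summit at 5666858, with 8 reads and a fold of 6.67. The first summits inside were 6171625 in ORF, with a fold of 5.17, and 6481817 in CTR, with a fold of 5.78. The last inside were 11720134 in ORF (fold 5.74) and 11656518 in CTR (fold 7.43). After the window the next summits were 12528059 in ORF (fold 6.61) and 12528540 in CTR (fold 8.15). The limits at 6 and 12 Mb therefore fell in stretches without peaks, and no member lay closer than 171.6 kb to either limit.

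ORF held more peaks than CTR in nearly every part of the window. The ratio of ORF to CTR peaks was lower in the 500 kb of highest density than over the rest, though the difference in peaks per 100 kb was larger there. The densities were 95.8 in ORF and 72.8 in CTR in that part, and 20.6 and 12.6 over the rest. ORF exceeded CTR in 48 of the 52 bins that were filled in both, the counts were equal in 2, and CTR exceeded ORF in 2. Over the whole window ORF had 1.52 times as many peaks. The whole ORF list was also longer, with 3013 against 2079 peaks. From 0 to 6 Mb there were 961 against 696, and elsewhere 442 against 324. In the 500 kb with the highest density the ratio was 1.32 (95% exact binomial interval 1.15 to 1.51), and over the rest of the window, 1131 against 695 peaks, it was 1.63 (1.48 to 1.79). These intervals cover counting error only and treat peaks as independent, which neighbouring peaks may not be. Among the 40 bins with at least 10 CTR peaks the ratio ran from 0.786 to 2.25, with a median of 1.45. In the other bins filled in both lists, which had fewer CTR peaks, it ran from 0.833 to 4.5. By stretches of 1 Mb it was highest in the first, with 93 ORF and 40 CTR peaks (2.33), and lowest in the second, with 616 and 452 (1.36). The worth of 1 input read, which scales with the number of ChIP reads, was 1.02 times as high in ORF as in CTR. Read totals are not in the lists, and the part of depth in the number of peaks was not tested.

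Neighbouring summits were close together. The median distance from one summit to the next was 1481 bp in ORF and 1908.5 bp in CTR, with quartiles of 602 and 3617 bp and of 661.25 and 5911.75 bp. Of 1609 ORF spacings 631 (39.2%) were at most 1000 bp, as were 357 of 1058 CTR spacings (33.7%), and the closest neighbours were 89 and 86 bp apart. Spacings above 10 kb numbered 114 in ORF (7.09%) and 145 in CTR (13.7%). In the stretch from 7 to 8 Mb the median spacing fell to 810 bp in ORF and 1040 bp in CTR, against 3593.5 and 7069 bp from 6 to 7 Mb. Spacing was uneven, with a standard deviation of 2.78 times the mean in ORF and 1.85 times in CTR, the empty stretches included. The longest spacing was 281850 bp in ORF and 163476 bp in CTR. That of ORF followed its 2 lone peaks and lay before the first CTR summit, so the 2 values do not cover the same gaps.

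**Figure D2:**
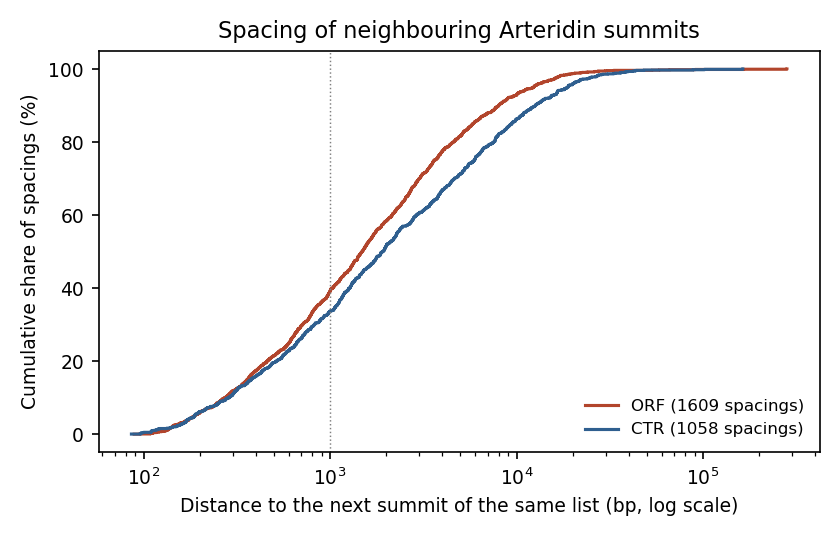
Cumulative share of spacings (%) against the distance from each summit to the next of the same list, in bp on a log scale, with a dotted line at 1000 bp. The curves of both lists start together near 100 bp and have parted at that line, which 39.2% of ORF and 33.7% of CTR spacings do not exceed.

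Joined over gaps of up to 1000 bp, the 2669 peaks of both lists formed 1118 groups, and 589 of these (52.7%) were single peaks. Groups with peaks of both lists numbered 378, groups with ORF peaks alone 508 and groups with CTR peaks alone 232. The window has more ORF than CTR peaks, 1610 against 1059, and the part of this in these counts was not tested. No such counts are given for the whole lists, so they are not a trait of the window. At least 5 peaks stood in 93 groups, which together held 981 peaks, and 88 of the 93 had peaks of both lists. Because the lists were pooled before grouping, large groups tend to hold both, and the part of this pooling was not tested. Of the 93, 48 lay in the 500 kb of highest density. The largest group, chr6:7278977-7300930, held 36 ORF and 31 CTR peaks in 21954 bp. Next came chr6:7187460-7197724 with 24 and 17 peaks, chr6:7420679-7431970 with 22 and 16, chr6:7370882-7384611 with 24 and 12, and chr6:7507057-7519965 with 16 and 12. All 5 of these groups lay between 7.1 and 7.6 Mb, and no peak in them had a fold above 10.5.

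Most members were short and rested on few reads. Peak length had a median of 79 bp in ORF and 77 bp in CTR, and 312 ORF peaks (19.4%) and 211 CTR peaks (19.9%) had the shortest length of their list, 53 and 52 bp. The 1610 ORF peaks covered 154 kb and the 1059 CTR peaks 92.5 kb. In the 500 kb of highest density peaks covered 10.5% of the sequence in ORF and 7.22% in CTR, against 1.85% and 1.03% over the rest of the window. The median over members was 8 reads in ORF and 8 in CTR at the summit, and 90.2% of ORF and 93.1% of CTR members had 5 to 10. At the genome-wide background level, met at 8.94% of ORF and 11.4% of CTR summits, the fewest reads at a listed summit were 5 in both lists. The other members had higher expected levels, and the fewest reads called at those levels are not given here. Only 21 ORF and 8 CTR members reached 20 reads, with maxima of 47 and 29. The authors' fold, which is the ratio of reads to the expected level after 1 is added to each, ran from 3.15 to 12.6 among ORF members (median 5.58) and from 3.02 to 11.1 among CTR members (median 5.62).

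A −log10 q of at least 5, where q is the caller's p-value after adjustment over the genome, was reached by 223 ORF members (13.9%) and 107 CTR members (10.1%), beside 16.2% and 15.2% of the whole lists. In the 500 kb of highest density 92 of 479 ORF peaks (19.2%) and 51 of 364 CTR peaks (14%) reached it, and over the rest of the window 131 (11.6%) and 56 (8.06%). Peaks in the densest part were also a little longer, with medians of 91 against 77 bp in ORF and 83 against 72 bp in CTR. Their median reads were 8 against 7 in both lists. These differences between parts of the window were not tested, since peaks of 1 library are not replicates.

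The expected level at the summits was higher in the 500 kb of highest density than over the rest of the window. Its medians were 0.548 against 0.448 in ORF and 0.529 against 0.424 in CTR. Every level in both lists was either the genome background, 0.361 in ORF and 0.349 in CTR, or a whole number of input reads (within 0.0001, and within 0.0002 for the fragment) over the fragment, over 1 kb or over 10 kb, with the shortest peak of the list as the fragment length. A given level can match more than 1 of these widths, and the shorter was then taken. The background was equal to 72.6 input reads per 10 kb in both lists, and the labels show 1 Arteridin input, so both lists were set against an input of the same size and overlap between them is not independent of it. The background level was met at 8.94% of ORF and 11.4% of CTR summits in the window. It was met at 2.30% and 4.12% in the 500 kb of highest density, and at 11.8% and 15.3% over the rest. By stretches of 1 Mb this share did not fall steadily as density rose. From 6 to 7 Mb, at 9.3 ORF and 4 CTR peaks per 100 kb, it was 5.38% and 7.5%. From 8 to 9 Mb, at 23 and 15.5 per 100 kb, it was 20% and 26.5%. Where the level came from the 10 kb width, the input had a median of 93 reads per 10 kb in the densest part in both lists, and 86 in ORF and 85 in CTR over the rest. These input medians were 1.28 times the background in the densest part in both lists and 1.19 (ORF) and 1.17 (CTR) times over the rest, while peak density was 95.8 against 20.6 per 100 kb in ORF and 72.8 against 12.6 in CTR. Levels under the background are not visible in the lists, so these medians are of the higher input values. The part of the input in the density was not tested.

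Few single positions were shared. By an overlap of at least 1 bp, 270 of the 1610 ORF members (16.8%, 95% Wilson interval 15.0 to 18.7) met a CTR peak, and 273 of the 1059 CTR members (25.8%, 23.2 to 28.5) met an ORF peak. Over the whole lists the shares were 22.6% and 33.2%. From 0 to 6 Mb of the same chromosome they were 27.3% (24.5 to 30.2) and 38.8% (35.2 to 42.5), and over all other sequence 33.5% (29.2 to 38.0) and 45.4% (40 to 50.8). The window's intervals lay below those of both other parts in each list. They cover counting error only, and no test of the difference was possible with 1 library per condition.

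By stretches of 1 Mb the shared share was highest where peaks were densest, but did not follow density over the rest of the window. From 7 to 8 Mb 25% of ORF and 34.7% of CTR peaks overlapped the other list, where there were 61.6 ORF and 45.2 CTR peaks per 100 kb. In the other stretches of 1 Mb the shares ran from 8.60% to 15.8% in ORF and from 15.4% to 23.2% in CTR, in another order than their densities. From 11 to 12 Mb, for example, 15.8% of ORF peaks were shared at 19 per 100 kb, and from 6 to 7 Mb 20% of CTR peaks at 4 per 100 kb. Among bins of 100 kb the share was highest in the sparse bin starting at 10100001, with 80% of 5 ORF and 66.7% of 6 CTR peaks. In the 500 kb of highest density 137 ORF peaks (28.6%, 24.7 to 32.8) and 140 CTR peaks (38.5%, 33.6 to 43.6) were shared. Over the rest of the window 133 (11.8%, 10.0 to 13.8) and 133 (19.1%, 16.4 to 22.2) were. Closely packed peaks meet more often by position alone, and the part of density in these shares was not tested.

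Overlap was more frequent among the few peaks with more than 10 reads. Of the ORF members with 5 to 6, 7 to 8 and 9 to 10 reads 14.2%, 14.2% and 16.2% overlapped a CTR peak, of the 117 with 11 to 14 reads 31.6%, and of the 40 with 15 reads or more 47.5% (32.9 to 62.5). Of the CTR members with 5 to 6, 7 to 8 and 9 to 10 reads 19.5%, 23% and 28.6% overlapped an ORF peak, of the 57 with 11 to 14 reads 47.4%, and of the 16 with 15 reads or more 14 did (87.5%, 64.0 to 96.5). Longer peaks have more room to overlap, and median length rose from 70 bp to 133.5 bp between the lowest and the highest of these classes in ORF and from 75 to 129.5 bp in CTR. Shared members had median lengths of 100 bp in ORF and 89 bp in CTR, against 77 and 73 bp for the others. The part of length was not tested.

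**Figure D3:**
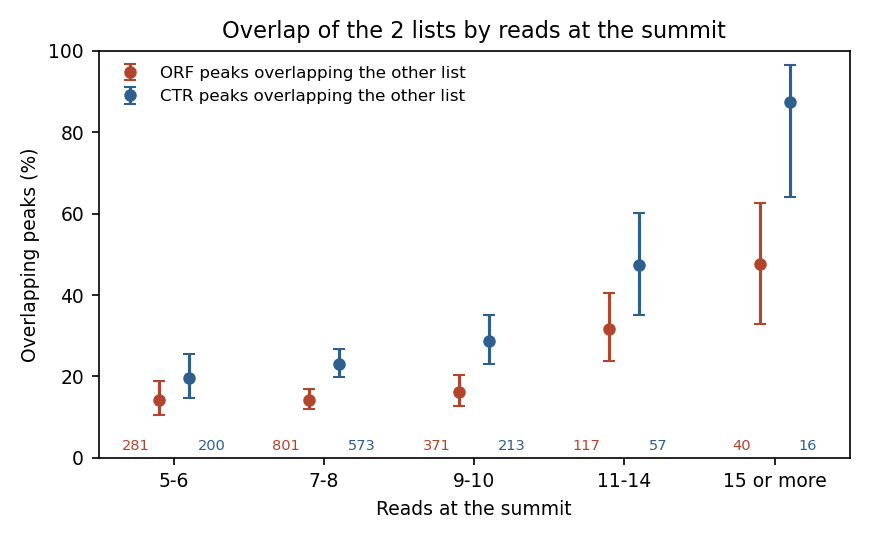
Share of window peaks (%) that overlap a peak of the other list by at least 1 bp, by the number of reads at the summit, with 95% Wilson intervals and the number of peaks in each class above the axis. The share stands at 14.2% for ORF and 19.5% for CTR peaks of 5 to 6 reads and at 47.5% and 87.5% for those of 15 reads or more.

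Many peaks without overlap had a summit of the other list within 1000 bp. Of the 1340 ORF peaks without overlap 585 (43.7%) did, and of the 786 such CTR peaks 473 (60.2%) did. Their nearest summit in the other list lay at a median of 1259.5 bp for ORF and 714.5 bp for CTR. None lay within 10 kb of 66 ORF peaks (4.93%) and of 4 CTR peaks (0.509%). Over all members, shared ones included, the nearest summit of the own list lay at medians of 744 bp in ORF and 917 bp in CTR. Closely packed peaks lie near each other by position alone, and the part of density in these shares was not tested. The same shares are not given for the whole lists, so nearness here is not evidence of shared sites.

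The overlaps made 280 pairs of an ORF and a CTR peak, and in 279 of them the 95% interval of the read ratio spanned 1. Reads were taken at each peak's own summit, so the 2 counts of a pair are mostly not of the same position. A pair's summits lay a median of 52 bp apart, within 20 bp in 65 pairs and more than 100 bp apart in 64. ORF had more reads in 137 pairs, CTR in 101, and 42 pairs were equal. After correction for depth the median ratio of ORF to CTR reads was 0.985, and the middle 95% of pairs ran from 0.657 to 1.77. The exact binomial interval of the ratio lay above 1 in 1 of the 280 pairs and below 1 in 0, beside 0.556% above and 0.139% below over all 719 pairs of the series. At a median of 8 reads a side, only large ratios could have been seen. Both peaks of a pair had to pass the caller, which narrows the ratios that can occur.

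**Figure D4:**
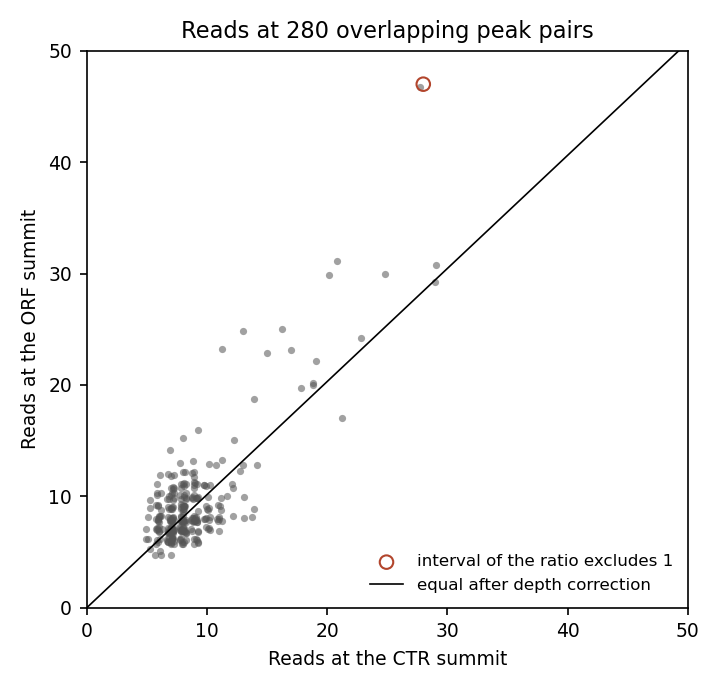
Reads at the ORF summit against reads at the CTR summit for the 280 overlapping pairs of the window, moved slightly at random so that equal points can be seen, with the line of equal reads after correction for depth. Of the pairs, 259 sit between 5 and 14 reads on both axes, and the circled pair, with 47 and 28 reads, is the one whose interval lies above 1.

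The highest shared site was chr6:11029020-11029215, with 47 reads in ORF and 28 in CTR against expected levels of 2.82 and 2.78. Its folds were 12.6 and 7.68, its summits lay 5 bp apart, and the corrected read ratio was 1.65 (95% exact binomial interval 1.01 to 2.74). Next by ORF fold was chr6:6968139-6968221, with 31 and 21 reads, summits 6 bp apart and a ratio of 1.45 (0.809 to 2.66). The site chr6:10811663-10811731 had 30 and 20 reads, summits 3 bp apart and a ratio of 1.48 (0.812 to 2.75). At chr6:7158420-7158793 the libraries were nearly level, with 31 and 29 reads, folds of 10.5 and 10.1, summits 1 bp apart and a ratio of 1.05 (0.614 to 1.81). These 4 sites had nearly the same expected level in both lists, and their summits fell within a few bases of each other.

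The other 4 of the 8 highest shared sites rested on fewer reads. They were chr6:9938078-9938148 with 13 reads in ORF and 11 in CTR, chr6:7435761-7435909 with 14 and 7, chr6:7337890-7338064 with 15 and 8, and chr6:7357496-7357612 with 13 and 8. Their ORF folds were 9.94 to 10.0 and their CTR folds 4.67 to 6.23, and the read ratios, 1.16 to 1.97, had intervals that spanned 1. At 3 of them, all but chr6:7435761-7435909, the CTR level was 0.925, that is 1 input read under the summit, against 0.398 to 0.598 in ORF. The part of this level in the difference in fold was not tested. Ranking by ORF fold also favours sites where ORF happened to be high.

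Peaks listed in 1 library alone were led by a pair of ORF peaks 1.1 kb apart. The first, chr6:9573244-9573311, had 23 reads against a level of 0.94 and a fold of 12.4, and the second, chr6:9574426-9574584, had 22 reads, the same level and a fold of 11.9. The only CTR peak with a summit within 5 kb of the first was chr6:9572942-9572993, with 6 reads, and it overlapped a weaker ORF peak with 8 reads. The next ORF peaks without overlap were chr6:7699440-7699499 with 21 reads, chr6:9378025-9378145 with 16, chr6:8555475-8555601 with 15 and chr6:10482468-10482669 with 12, at folds of 9.50 to 10.8. The nearest CTR summits lay 154 to 596 bp from these 4.

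CTR peaks without overlap were lower. Their highest was chr6:10919858-10920011, with 13 reads, a level of 0.399 and a fold of 10.0, and the nearest ORF summit lay 1192 bp away and had 7 reads. It was followed by chr6:7271947-7272012 with 14 reads, chr6:6871796-6871847 and chr6:10412196-10412346 with 11 each, chr6:7178372-7178423 with 12, and chr6:11604117-11604212 with 11. Folds of these 5 were 8.66 to 8.96. An ORF summit lay 51 bp from the second of them, chr6:6871796-6871847, without the peaks touching. A peak missing from a list has no value there, so reads in the other library at these sites are not known.

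The longest ORF peaks stood together in one place with a raised input. Within 5 kb of the ORF summit at 10808525 there were 16 ORF and 10 CTR peaks, a span chosen after its values had been seen. It held 4 of the 5 longest ORF members, chr6:10805933-10806847 (915 bp, 25 reads), chr6:10806953-10807553 (601 bp, 23 reads), chr6:10812069-10812548 (480 bp, 20 reads) and chr6:10807609-10808021 (413 bp, 24 reads). The long ORF peaks each met shorter CTR peaks. Below the 601 bp peak, for example, were CTR peaks of 132 bp with 15 reads and of 54 bp with 17 reads. The central peak, chr6:10808442-10808545, had an expected level of 6.58 in ORF, the highest of the window together with that of chr6:11629756-11629934. There ORF had 30 reads and CTR 25, at folds of only 4.09 and 3.48. The bin of 100 kb starting at 10800001 had median reads of 11 in ORF and 9 in CTR and an input of 105 and 104 reads per 10 kb where that width set the level. The part of the raised input in the lengths and reads here was not tested.

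**Figure D5:**
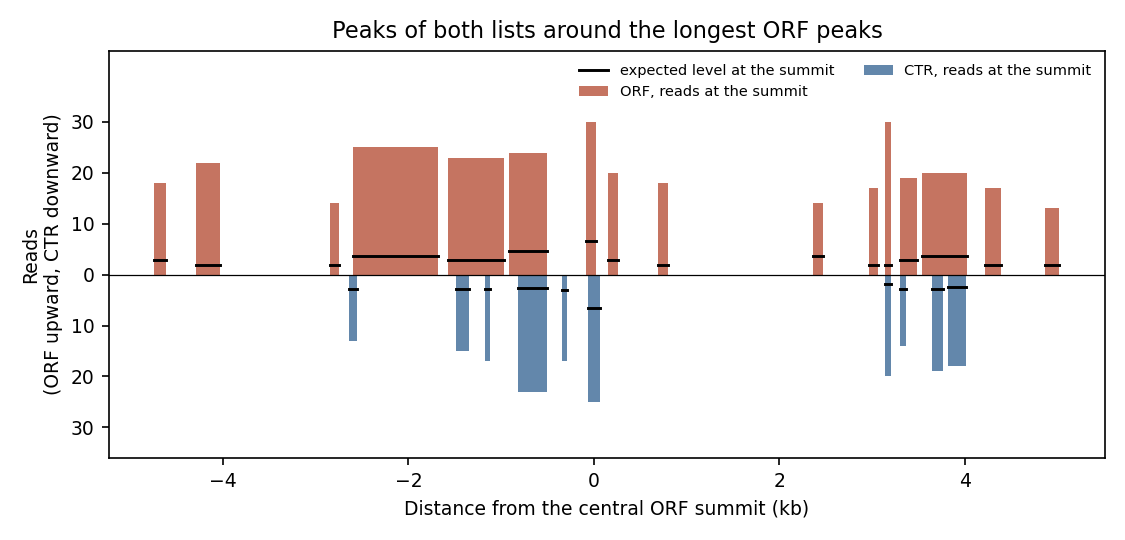
Peaks of both lists in the span that holds the longest ORF peaks, as bars from start to end with the reads at the summit as height (ORF upward, CTR downward) and black lines at the expected level, against the distance in kb from the central ORF summit. ORF peaks reach 915 bp in length and CTR peaks 313 bp, and both lists leave a gap of more than 1 kb near the middle.

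The longest CTR peaks stood elsewhere. All but chr6:10807706-10808018, of 313 bp, lay in the 500 kb of highest density, namely chr6:7279082-7279582 of 501 bp, chr6:7257441-7257848 of 408 bp, chr6:7311513-7311894 of 382 bp and chr6:7195144-7195482 of 339 bp. These 4 had 9 or 10 reads at the summit, and each overlapped an ORF peak. The remaining one of the 5 longest ORF peaks, chr6:7405148-7405630 of 483 bp with 11 reads, also lay in that part.

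The window held few YBX1 peaks, and none of them overlapped an Arteridin peak. By their centres, 1 of 82 peaks of the YBX1 list labelled NC, 2 of 608 with overexpression of tagged Arteridin (ART) and 1 of 341 with a start-codon mutant of the lncPSR transcript (PSR) lay there, which is 1.22%, 0.329% and 0.293% of each list. Over all assembled chromosomes except Y, 1 of 79 NC, 7 of 587 ART and 2 of 329 PSR peaks overlapped an Arteridin peak of either list (1.27%, 1.19% and 0.608%). A single site was in all 3 lists, chr6:9464652-9465050 in NC, where the authors' fold was 7.32 for NC, 12.7 for ART and 14 for PSR. The nearest Arteridin summits were more than 9 kb away, 10141 bp in ORF and 9400 bp in CTR from its centre in NC. The remaining ART peak, chr6:7642670-7644528, had a fold of 4.33 and lay 3700 bp from the nearest ORF summit. Folds of different YBX1 lists depend on each list's own expected level and cannot be compared as levels of binding.

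Compared with other parts of the lists, the window's peaks had median folds close to those from 0 to 6 Mb, and a smaller part of them reached 20 reads than elsewhere. The window held 53.4% of the ORF list (51.7 to 55.2) and 50.9% of the CTR list (48.8 to 53.1), and 0 to 6 Mb held 961 (31.9%) and 696 (33.5%). Median folds were 5.58 in ORF and 5.62 in CTR in the window, 5.69 and 5.71 from 0 to 6 Mb, and 5.16 and 5.55 elsewhere. Peaks with at least 20 reads numbered 21 and 8 in the window, 19 and 21 from 0 to 6 Mb, and 90 and 83 among the far fewer peaks elsewhere, 442 and 324. The share of summits at the genome background level was 8.94% and 11.4% in the window, 14% and 15.1% from 0 to 6 Mb, and 25.8% and 27.2% elsewhere. These differences between parts were not tested.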

How the data were processed

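For each ChIP library the authors deposited a peak list of its own, without pooling. FastQC, Bowtie2, SAMtools, MACS2 and HOMER are named per the submitters' processing notes; their versions and cutoffs, the duplicate handling and the build were not given in the sources used here. Sequence names are those of Rnor_6.0. Deposited columns give a score (10 times −log10 q), a fold (ratio), −log10 p and −log10 q and, in the other numeric column of narrow peaks, the summit distance. Positions are printed counted from 1.

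Reads at each summit and the expected level were solved from fold and p as MACS2 relates them; a whole number of reads met the listed p within 0.0001 in −log10 for all 3013 ORF and 2079 CTR peaks. Library read totals are not in the lists, so depth is known only through these values. Python 3.11.15 with scipy 1.17.1 was used; overlaps were recounted with bedtools 2.31.1 with the same result, and the code was tested on simulated data. Intervals cover counting error only, and PCR copies are not told apart.

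The members and lists were chosen with earlier results of these data known. Named sites were the 8 shared pairs with the highest ORF fold, the 6 unshared peaks of each list with the highest fold, the 5 longest peaks of each list, the fullest and empty bins, the 5 longest empty stretches, the 5 largest groups and YBX1 peaks; spans, bins and peaks beyond these were chosen after values were seen. Alternatives changed the threshold, the overlap, bin width, linking, merging and depth correction.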

Additional observations from a re-analysis of the deposited data

How the results depend on the processing

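At a −log10 q of 5 or more the window held 223 ORF and 107 CTR peaks, 45.7% and 33.9% of the lists; with a fold of at least 6, 550 and 326, the latter 45.7% of CTR; with peaks merged over 1000 bp, 941 and 683, 57.1% and 56.8%. With both lists cut at the stricter −log10 q, the shares overlapping the other list were 6.28% (ORF) and 13.1% (CTR). They were 9.82% and 17.5% with both cut at the stricter fold, and 6.52% and 9.92% with reciprocal overlap of 50%. Against the uncut other list, 67 of the 223 ORF and 44 of the 107 CTR peaks at the stricter −log10 q overlapped a peak. Median spacing was 8020.5 and 17565 bp at the stricter −log10 q, 3537 and 6557 bp at the stricter fold, and 3589.5 and 4654.5 bp after merging. Empty bins numbered 14 in ORF and 23 in CTR at the stricter −log10 q, 16 and 19 with bins of 50 kb, and 2 and 3 with bins of 200 kb. Dense stretches numbered 3 with linking over 50 kb and 3 at the stricter −log10 q. Linking over 200 kb joined both dense stretches into 1. These alternatives keep fewer peaks, demand more overlap or use other widths by construction; beyond that the cause was not tested. ORF had more peaks than CTR under the stricter −log10 q, the stricter fold and merging. In all, 13 values, both counts of 3 dense stretches included, stayed within 1.5 times (counts) or within the 95% interval (shares and medians). Among them was the median read ratio, 0.985 to 1.08. No paired analysis was possible because there was a single library in each group. Depth limits what can be seen: the median peak had 8 reads, and the lists give no value where no peak was called.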

Other observations

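Fold and reads did not always order the 2 libraries in the same way. Of the 238 shared pairs with unequal reads, the library with more reads had the lower fold in 37 (15.5%), 22 of them with more reads in ORF and 15 with more in CTR. One of them, chosen after its values were seen, was chr6:7698989-7699281, where ORF had 23 reads and a fold of 3.62 and CTR 11 reads and a fold of 5.83. The expected level was 5.64 at the ORF summit and 1.06 at the CTR summit, 89 bp apart, and the corrected read ratio was 2.06 (95% exact binomial interval 0.965 to 4.68). After correction for depth the expected levels of the 2 peaks differed by more than 1.5 times in 73 of the 280 pairs (26.1%), and in 127 pairs (45.4%) they were the same number of input reads over the same width. At chr6:11629756-11629934 both libraries had 29 reads, with expected levels of 6.58 in ORF and 7.40 in CTR and folds of 3.96 and 3.57.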
